A study of Mus musculus with 15 samples.

Results

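The genes described here are the 36 members of a list of autophagy machinery genes, out of 55573 genes counted in mouse trigeminal ganglia (TG). They were chosen by their known role, at a time when earlier results of these data were known. They comprise 5 genes of the ULK1 kinase complex, 6 of the class III phosphatidylinositol 3-kinase (PI3-kinase) complexes, 6 for ATG9, lipid transfer and the reading of the lipid PI3P, 6 of the conjugation machinery, 4 ATG4 proteases, 5 ATG8 family genes and 4 cargo receptors or tethers. All 36 passed the filter on low counts and were tested among 16567 genes. RNA was taken from the right TG, the ganglion that holds the cell bodies of the sensory neurons of the cornea, on day 12 after the right cornea of 10-week-old male CD1 mice had been injured inside a 2 mm circle with a rotating burr. Eyes received vehicle, Resolvin D6 (labelled RvD6-standard, here RvD6) or RvD6-isomer (here RvD6si) 3 times a day, with 5 TG libraries in each group and no uninjured or genetically altered group. RvD6 is a lipid mediator made from docosahexaenoic acid, and RvD6si is a stereoisomer of it that was purified from tears and medium of injured mouse corneas. The amounts of RvD6 and RvD6si given to these eyes are not given in the sources used here, so that the schedule was matched while the dose cannot be compared.

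Autophagy is the process in which a cell wraps part of its cytoplasm in a new membrane, the phagophore, which closes into an autophagosome and is delivered to the lysosome for digestion. The ULK1 kinase complex starts the process, the class III PI3-kinase marks the membrane with PI3P, ATG9 and ATG2 bring lipids to it, and the ATG5, ATG7 and ATG12 conjugation machinery attaches the small ubiquitin-like proteins of the ATG8 family to it, where they bind the receptors that carry cargo. Neurons do not divide and have long axons, and they are known to depend on this clearance, with autophagosomes forming in the axon and travelling back to the cell body.

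The DNA before the start sites of these genes was read from RefSeq promoter windows on GRCm38.p6, each 250 bases before to 50 bases after a start, and 29 of the 36 members had a window, with 35 windows in all. Motifs were searched only in the 250 bases before the start of each window, for members and for all windows alike. Rb1cc1, Becn1, Pik3c3, Atg12, Atg16l1, Map1lc3a and Epg5 were not among them. The E-box CACGTG, the palindrome read by TFEB and related factors that are known to act on autophagy and lysosome genes, stood in 3 member windows (8.57%), against 6.02% of all 32851 windows. All of these 3 genes belong to the conjugation machinery. They are shown with up to 12 bases on each side, the E-box in capitals, all on the + strand at chr6:114670952-114670981 for Atg7 (132 bases before a start inside the gene), chr10:44268313-44268338 for Atg5 (14 bases before the start) and, for Atg3, chr16:45158723-45158752 and chr16:45158746-45158775 (94 and 71 bases before the start).
Atg7: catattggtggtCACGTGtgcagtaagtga
Atg5: cggagcgcttgcCACGTGgtcttggt
Atg3, farther copy: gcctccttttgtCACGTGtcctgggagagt
Atg3, nearer copy: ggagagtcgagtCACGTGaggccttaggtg

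Among the ATG8 family genes, the stretch before the start is shown for Map1lc3b and Gabarapl2, which had lower counts in both treated groups, and for Gabarapl1, which had higher counts with RvD6si, in each case at an unadjusted p below 0.05. Each stretch ends at the base before the annotated gene, on the + strand, at chr8:121590188-121590360 for Map1lc3b, chr8:111940453-111940702 for Gabarapl2 and chr6:129532942-129533159 for Gabarapl1. Capitals mark the GC box GGGCGG, the motif of Sp factors, on either strand.
Map1lc3b: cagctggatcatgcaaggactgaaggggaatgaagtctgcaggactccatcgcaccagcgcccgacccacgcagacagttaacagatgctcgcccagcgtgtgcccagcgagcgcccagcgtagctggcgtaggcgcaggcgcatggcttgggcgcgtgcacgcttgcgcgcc
Gabarapl2: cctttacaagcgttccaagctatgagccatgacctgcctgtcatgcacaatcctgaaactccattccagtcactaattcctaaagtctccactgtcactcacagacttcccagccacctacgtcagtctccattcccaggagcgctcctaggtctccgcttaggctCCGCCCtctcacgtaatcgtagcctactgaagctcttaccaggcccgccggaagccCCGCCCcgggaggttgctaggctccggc
Gabarapl1: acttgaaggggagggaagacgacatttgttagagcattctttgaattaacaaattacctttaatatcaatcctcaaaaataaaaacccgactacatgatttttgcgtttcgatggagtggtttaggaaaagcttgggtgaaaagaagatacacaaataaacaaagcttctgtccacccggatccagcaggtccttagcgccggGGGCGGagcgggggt

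These stretches held 0, 2 and 1 GC boxes. The full 250 bases before the RefSeq start reach into the annotated gene for Map1lc3b and Gabarapl1. Over these 250 bases, the GC box stood in 17 of the 35 member windows (48.6%) and in 32.7% of all windows. The CCAAT box, letters CCAAT, stood in 9 member windows (25.7%) against 33.8%, and the TATA box, letters TATAAA, in 1 (2.86%, Atg4a) against 12.4%. The letters GTAAACA of the FOXO core were found in 0 member windows and in 3.17% of all windows, which says only that these letters are not in these stretches. Both strands were searched for every motif, and the windows of Atg3 and Atg5 held both an E-box and a GC box. A match of letters is a description and not a measured binding site.

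The libraries held 4125962 to 9903396 counts (median 7756538). All 13 sensory neuron markers were found, with a summed level of 12990 to 15050 CPM (counts divided by the library total and scaled to the same total for all libraries) with vehicle, 7167 to 14200 with RvD6 and 12330 to 15970 with RvD6si. Markers of other tissues were higher in the RvD6 libraries. The 10 skeletal muscle markers summed to 113.5 to 2567 CPM, against 49.82 to 189.1 with vehicle and 38.15 to 80.36 with RvD6si, and the 7 erythroid markers to 5754 to 10620 CPM, against 2382 to 5066 with vehicle. With RvD6si the erythroid sum ran from 935.9 to 12020 CPM, with replicate 15 at the top. The sum of 11 marrow precursor markers was 469.9 to 1595 CPM with RvD6, 74.9 to 424.4 with vehicle and 34.63 to 1206 with RvD6si. The 6 satellite glia markers summed to 6845 to 8219 CPM with vehicle and lay below that range with RvD6 (5016 to 6693) and RvD6si (4645 to 6654), whereas the sums for Schwann cells, macrophages, endothelial cells and fibroblasts overlapped between all groups. Taken singly, all 6 fibroblast markers lay above 0 with RvD6 against vehicle, with a median log2 fold change of 0.79. Of these, 3 were higher at an unadjusted edgeR p below 0.05, as were 7.63% of all genes. With RvD6si against vehicle 5 of the 6 lay above 0, with a median of 0.22. No marker of any list was at 0 in all libraries. In bulk RNA of this kind, fewer cells of a type and less RNA per cell cannot be told apart. The p-values below set a difference between groups against the spread between ganglia within groups. In the edgeR fit this spread was estimated over all 15 libraries together. Both comparisons with vehicle use the same 5 vehicle libraries.

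Together the 36 members took 0.391% to 0.433% of all counts with vehicle, 0.344% to 0.381% with RvD6 and 0.381% to 0.440% with RvD6si. The RvD6 and vehicle ranges did not overlap, whereas the RvD6si range spanned the vehicle range. This sum is weighted by the most counted members, and the median log2 fold change of the 36 with RvD6 was 0.03. Map1lc3b, with the most counts, had a mean count, divided by the library size factor, of 8345 with vehicle. The same mean was 6058 with RvD6 and 6358 with RvD6si. Per kilobase of exon (CPM per kilobase), the ATG8 family genes led the list in every group. With vehicle, Map1lc3b, which encodes LC3B, the protein most used as a mark of autophagosomes, stood at 155 ± 21.4, Gabarapl2 at 146 ± 14.1, Gabarapl1 at 139 ± 9.94, Map1lc3a at 120.0 ± 35.8 and Gabarap at 92.5 ± 8.32 (mean ± SD, n = 5 each). The order of the leading 4 was within their spread, and it also depends on the exonic length that the counts are divided by. This length was 7517 bases for Map1lc3b, 2325 for Gabarapl2, 2013 for Gabarapl1 and 1181 for Map1lc3a. It includes bases shared with other genes, where reads were not counted, 28.3% of the length for Gabarapl1. Atg101 followed at 59.2 ± 10.5, Atg5 at 43.8 ± 4.70 and Atg3 at 40.3 ± 5.95. At the other end stood Atg4c at 1.11 ± 1.02, Epg5 at 1.07 ± 0.491 and Ambra1 at 0.686 ± 0.290, and a single library held as few as 5 counts of Atg4c. The spread within the vehicle group was 3.22% of the mean for Tax1bp1, a receptor for ubiquitin-tagged cargo, and 92.3% for Atg4c.

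**Figure D1:**
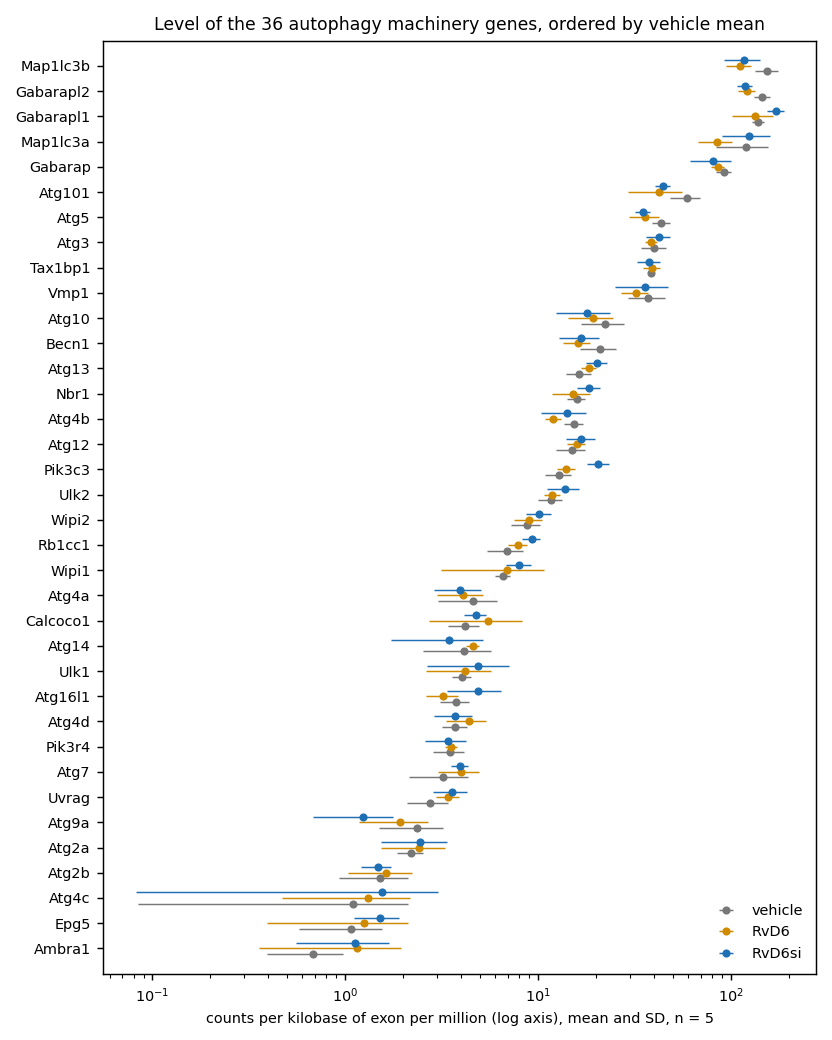
Level of the 36 members in CPM per kilobase of exon (log axis), as mean (point) and SD (line) of the 5 libraries of each group, ordered by the vehicle mean. The means of the 5 ATG8 family genes lie above all others, at 92.5 to 155 with vehicle, and Ambra1, Epg5 and Atg4c lie lowest.

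The question asked of the RvD6si and vehicle groups was what the isomer did to gene expression in the ganglion after corneal injury. Of the 36 members 1 rose and 0 fell at an edgeR adjusted p below 0.05, where 0.67% of all genes tested passed. The gene that rose was Pik3c3. DESeq2 called the same 1 member, and 7.72% of all genes to which it gave an adjusted p. At an unadjusted edgeR p below 0.05, 4 members were higher (11.1%, against 8.69% of all genes) and 5 lower (13.9%, against 7.3%). The groups did not overlap on the log2 CPM scale for 1 member in the higher direction, Pik3c3 (2.45% of all genes), and for 1 in the lower, Atg5 (2.46%). The median log2 fold change of the 36 was 0.12, against 0.02 over all genes tested. It was 0.0627 without vehicle replicate 1, 0.0718 without RvD6si replicate 11, 0.0322 with the length trend and 0.079 with the GC trend removed. Of the members, 20 (55.6%) lay above 0, as did 51.2% of all genes.

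Against vehicle, 0 of the 36 members passed an edgeR adjusted p below 0.05 with RvD6, as did 0% of all genes, although 1264 genes were higher and 992 lower at an unadjusted p below 0.05. DESeq2 also called 0 members, with 1.9% of all genes. Unadjusted, 0 members were higher, where 7.63% of all genes were, and 5 were lower (13.9%, against 5.99%): Map1lc3b, Atg101, Map1lc3a, Gabarapl2 and Atg4b. No member stood apart from vehicle in the higher direction (2.15% of all genes), and 1 did in the lower, Atg4b (1.62%). The median log2 fold change was 0.03 beside 0.02 over all genes. It fell below 0 without vehicle replicate 2 (-0.0267) or 5 (-0.0133) and without RvD6 replicate 7 (-0.0026), 9 (-0.0467) or 10 (-0.0127). Again 20 of 36 members lay above 0, as did 52.2% of all genes.

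RvD6si and RvD6 form the 1 pair of compounds here that differ in the arrangement of the same atoms in space. Between them 0 of 36 members passed the edgeR adjusted p (0.235% of all genes did), and 1 passed with DESeq2, Pik3c3 (0.929%). Unadjusted, 4 members were higher with RvD6si (11.1%, against 4.18%), namely Pik3c3, Atg16l1, Map1lc3a and Gabarapl1, and 0 were lower (4.64%). For 1 member, Pik3c3, all RvD6si libraries lay above all RvD6 libraries (0.712% of all genes), and for 0 below (1.1%). The median log2 difference was 0.08 (0.0397 without RvD6 replicate 10), with -0.0039 over all genes, and 22 of 36 (61.1%) lay above 0, against 49.5% of all genes.

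**Figure D2:**
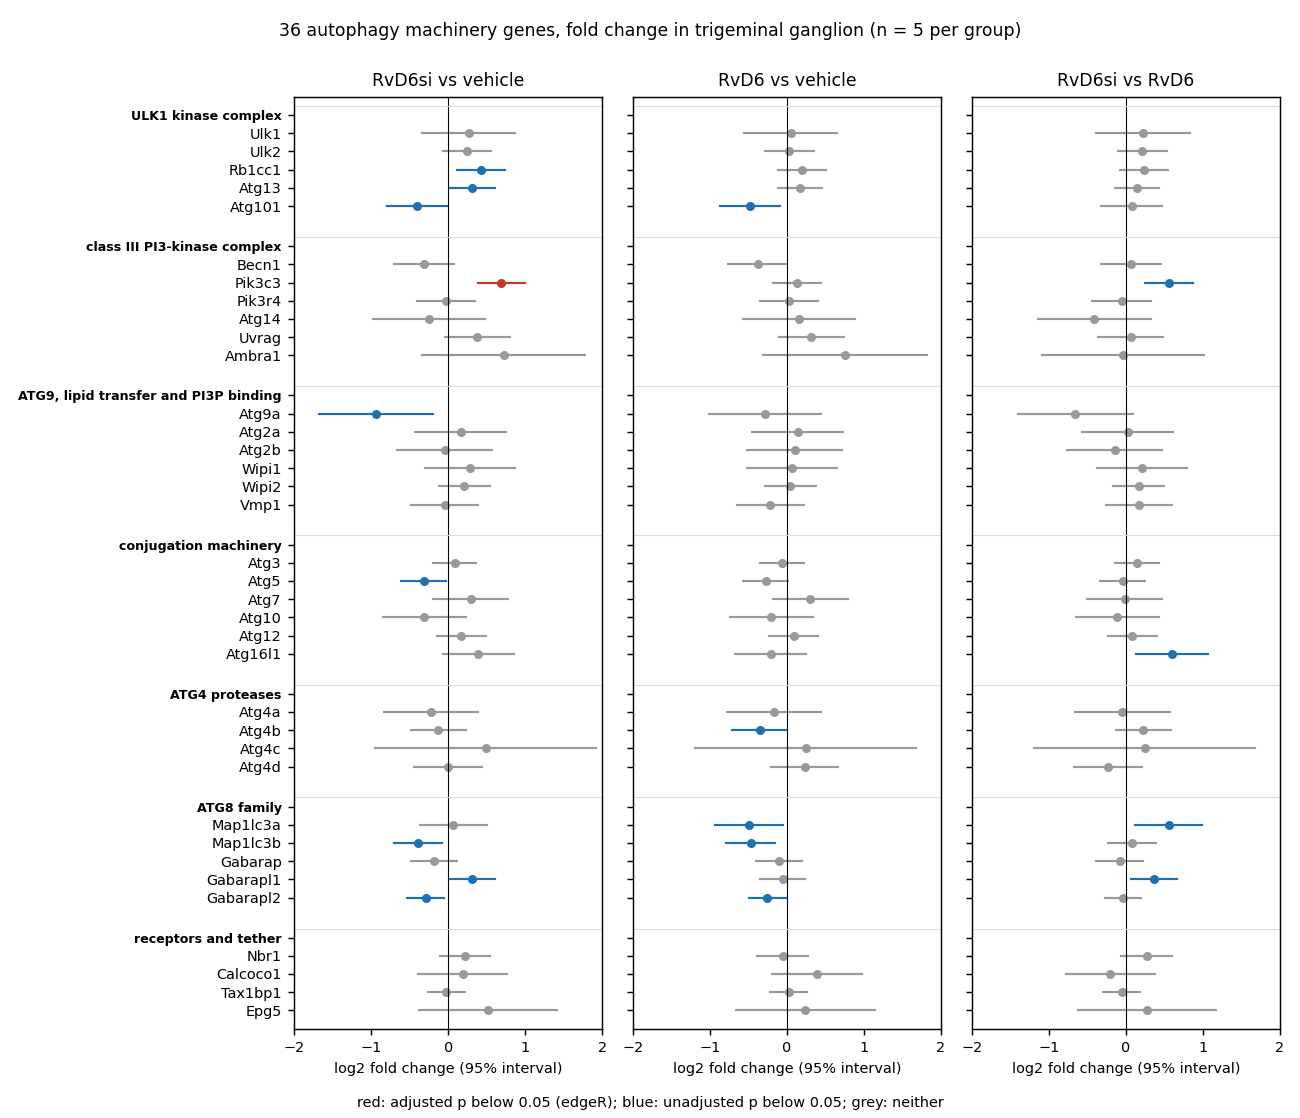
Log2 fold change (edgeR) of the 36 members in the 3 comparisons, grouped by role, with 95% confidence intervals as lines. Pik3c3 stands at 0.69 with RvD6si against vehicle, the 1 member past an adjusted p of 0.05, drawn in red. Blue marks an unadjusted p below 0.05, which 9, 5 and 4 members have in the 3 panels.

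Pik3c3 encodes VPS34, the catalytic subunit of the class III PI3-kinase that makes PI3P on the growing membrane and on endosomes. The gene lies at chr18:30272747-30348126 on the + strand of GRCm38, and no other annotated exon overlaps its own. Its normalized count, the count divided by the size factor of the library, was 376, 471, 319, 426 and 459.8 with vehicle, 506.5, 442, 497, 415 and 408 with RvD6, and 708, 619.8, 741, 712 and 536 with RvD6si (replicates 1 to 5, 6 to 10 and 11 to 15, the order used throughout). Each of the 5 RvD6si libraries was above each of the 10 others, while the RvD6 and vehicle libraries overlapped. With RvD6si it was 1.61-fold the vehicle level, a log2 fold change of 0.69 (SE 0.15, 95% interval 0.38 to 1.00), with an edgeR adjusted p of 0.0373 and a DESeq2 adjusted p of 2.41e-04. The exact two-sided permutation test of the means gave 0.00794, the smallest value that 252 splits of 5 against 5 allow. This value follows from the groups not overlapping and adds nothing to it. On the log2 CPM scale 2.45% of all genes did not overlap in the higher and 2.46% in the lower direction. With RvD6 the log2 fold change from vehicle was 0.13 (-0.18 to 0.44), with an edgeR adjusted p of 0.741. Between RvD6si and RvD6 it was 0.56 (0.25 to 0.87), an interval above 0, with an edgeR adjusted p of 0.180 and a DESeq2 adjusted p of 0.0215.

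The size of the Pik3c3 difference moved little when single libraries were left out, from 0.62 to 0.76 on the log2 scale, but its edgeR call against vehicle was kept in 7 of the 15 such fits. It was lost without vehicle replicate 1 (adjusted p = 0.0757), 2 (0.0728), 3 (0.120), 4 (0.0854) or 5 (0.0782) and without RvD6si replicate 11 (0.110), 13 (0.0769) or 14 (0.105). It was kept without RvD6si replicate 15. Over the 15 fits the number of genes called in the whole table ran from 0 to 229. With a score of skeletal muscle or of sensory neuron markers in the model, chosen after seeing the data, the adjusted p was 0.0463 and 0.0289. The other genes of the kinase complexes did not pass the test. Becn1, the scaffold Beclin 1, had a log2 fold change of -0.32 with RvD6si and -0.38 with RvD6, with edgeR adjusted p of 0.417 and 0.371, but 43.9% of its exon bases also belong to Cntd1 on the opposite strand, where reads without strand were assigned to neither gene. Uvrag, which forms the endosomal complex, stood at 0.38 and 0.32, Pik3r4, the regulatory subunit, at -0.03 and 0.02, and Atg14, which directs the kinase to autophagy, at -0.26 and 0.16. Ambra1, a partner of Beclin 1 and the member with the lowest level, stood at 0.72 (-0.34 to 1.78) and 0.75 (-0.31 to 1.81). Between the isomers the 5 genes ranged from -0.41 for Atg14 to 0.07 for Becn1.

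The ULK1 complex comprises the kinases Ulk1 and Ulk2, the scaffold Rb1cc1 (FIP200) and the partners Atg13 and Atg101. None of the 5 passed the adjusted test in any comparison, and between RvD6si and vehicle 2 were higher and 1 lower at an unadjusted p below 0.05, where 8.69% and 7.3% of all genes were. Rb1cc1 had a normalized count of 978, 741, 692.5, 559 and 675 with vehicle, 701, 969, 862, 804 and 865 with RvD6, and 1071, 1137, 933, 877 and 899 with RvD6si. The RvD6si libraries were high as a group, and 2 of them lay above all vehicle libraries, with vehicle replicate 1 inside the RvD6si range. Its log2 fold change was 0.43 (0.11 to 0.74) with RvD6si, with an edgeR p of 0.01 and an adjusted p of 0.161, and 0.19 (-0.12 to 0.50) with RvD6.

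Atg13 had 478, 445, 519.9, 639.6 and 488.5 with vehicle, 569.8, 670.5, 595, 511 and 569 with RvD6, and 729.6, 571, 633, 713 and 556 with RvD6si. Here too 2 RvD6si libraries were above all vehicle libraries, and the groups overlapped through vehicle replicate 4. RvD6si gave a log2 fold change of 0.31 (0.02 to 0.60) and RvD6 one of 0.17 (-0.12 to 0.46), with edgeR adjusted p of 0.273 and 0.635. Atg101, which steadies Atg13 in the complex, stood the other way in both treated groups, at 638, 815, 582, 561 and 796 with vehicle, 709.7, 426, 581, 376 and 359 with RvD6, and 466, 584, 491, 542 and 489 with RvD6si. In the RvD6si group 4 libraries lay below all vehicle libraries, and the RvD6 libraries were split, with replicates 7, 9 and 10 low and replicate 6 inside the vehicle range. The log2 fold changes were -0.40 (-0.80 to -0.01) with RvD6si and -0.48 (-0.87 to -0.09) with RvD6, with edgeR adjusted p of 0.302 and 0.282. Between RvD6si and RvD6 the differences were 0.24 (-0.07 to 0.55) for Rb1cc1, 0.15 (-0.15 to 0.44) for Atg13 and 0.08 (-0.32 to 0.47) for Atg101, so that no difference between the isomers was detected and sizes inside these intervals remain possible. Ulk1 and Ulk2 stood at 0.26 and 0.24 with RvD6si and at 0.04 and 0.03 with RvD6.

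Of the 6 genes for ATG9, lipid transfer and PI3P binding, 0 passed the adjusted test. Atg9a, a membrane protein that supplies vesicles and moves lipids between membrane leaflets, had the lowest log2 fold change of the 36 with RvD6si. Its normalized count was 77.1, 125.5, 62.6, 76.8 and 145 with vehicle, 66.4, 64.9, 58.8, 135 and 78.5 with RvD6, and 82.4, 31.9, 26.5, 51.7 and 63.4 with RvD6si. The RvD6si libraries were low, with 3 of the 5 below all vehicle libraries, and the groups overlapped. The log2 fold change was -0.94 (-1.69 to -0.20, edgeR adjusted p = 0.197) with RvD6si and -0.28 (-1.02 to 0.45) with RvD6, with -0.66 (-1.40 to 0.09) between the isomers. The gene shares 31.8% of its exon bases with Gm29253 on the same strand, where reads were assigned to neither gene. The PI3P reader Wipi2 stood at 0.21 and 0.04, its relative Wipi1 at 0.28 and 0.07, the lipid transfer genes Atg2a at 0.16 and 0.14 and Atg2b at -0.05 and 0.10, and the membrane protein Vmp1 at -0.05 and -0.22, with RvD6si and RvD6 in that order.

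In the conjugation machinery Atg5 and Atg16l1 were the members with an unadjusted p below 0.05 in any comparison. Atg5, joined to Atg12 in the complex that directs lipidation of ATG8 proteins, had a normalized count of 678, 740.2, 792, 644.5 and 840.5 with vehicle, 592.5, 587, 793, 513 and 595 with RvD6, and 611, 646, 625, 588 and 504 with RvD6si. The RvD6si libraries were low, 4 of the 5 lay below all vehicle libraries, and replicate 12 met the lowest vehicle library. The log2 fold change was -0.32 (-0.61 to -0.03) with RvD6si and -0.28 (-0.57 to 0.02) with RvD6, with edgeR adjusted p of 0.268 and 0.399, and between the isomers it was -0.04 (-0.33 to 0.25).

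Atg16l1, which brings the Atg12 and Atg5 pair to the membrane, had 267.5, 227, 296, 305 and 201 with vehicle, 243, 232, 276, 216 and 161 with RvD6, and 448, 201, 396, 394 and 258.5 with RvD6si. In the RvD6si group replicates 11, 13 and 14 were above all other libraries, and replicates 12 and 15 lay within the other groups. The difference between RvD6si and RvD6 was 0.60 (0.14 to 1.07, edgeR adjusted p = 0.402), with 0.39 (-0.08 to 0.85) for RvD6si and -0.22 (-0.68 to 0.25) for RvD6 against vehicle. Atg3 and Atg7, the enzymes that pass ATG8 proteins on, hold the E-box shown above, as Atg5 does. Atg3 stood at 0.08 (-0.20 to 0.37) with RvD6si and -0.06 (-0.35 to 0.22) with RvD6. Atg7 stood at 0.29 (-0.20 to 0.78) and 0.30 (-0.19 to 0.79), Atg10 at -0.31 and -0.20, and Atg12 at 0.17 and 0.08.

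The ATG4 proteases trim new ATG8 proteins and release them from membranes. Of the 4, Atg4b had the highest level and a normalized count of 828, 811, 994, 902 and 1046 with vehicle, 775, 667, 794, 721 and 654 with RvD6, and 975, 514, 947.5, 1046 and 715 with RvD6si. All 5 RvD6 libraries lay below all vehicle libraries, and the RvD6si libraries spread over both groups, with replicate 12 lowest of all. The log2 fold change with RvD6 was -0.36 (-0.71 to -0.001), with an edgeR p of 0.0494 and an adjusted p of 0.366, beside -0.13 (-0.48 to 0.23) with RvD6si and 0.23 (-0.13 to 0.58) between the isomers. Atg4a, Atg4c and Atg4d stood at -0.17, 0.24 and 0.23 with RvD6 and at -0.22, 0.49 and -0.0048 with RvD6si.

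**Figure D3:**
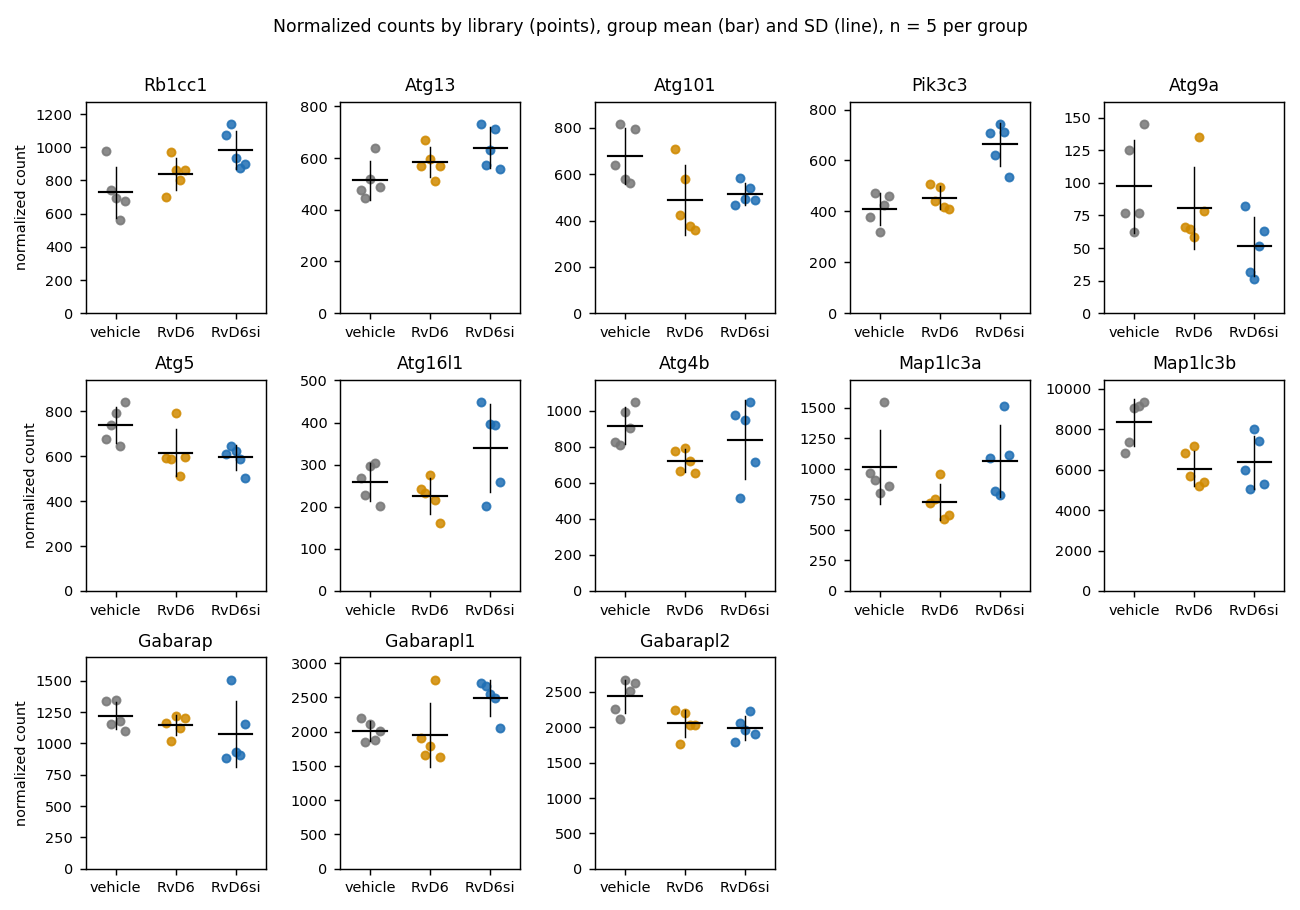
Normalized counts of the 13 members described library by library, 1 panel per gene with its own axis, with points for the 5 libraries of each group a bar at the group mean and a line for the SD. Pik3c3 is the 1 panel in which all RvD6si points lie above all points of both other groups.

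The ATG8 family falls into the LC3 branch, Map1lc3a and Map1lc3b, which elongates the membrane, and the GABARAP branch, Gabarap, Gabarapl1 and Gabarapl2, which acts later and binds the ULK1 complex. Map1lc3b, at chr8:121590361-121598760 on the + strand, had the most counts of any member, 6814, 7378, 9041, 9158 and 9336 with vehicle, 6808, 5712, 7173, 5210 and 5388 with RvD6, and 5999, 5042, 8022, 7416 and 5310 with RvD6si. Replicate 1 was the lowest of the vehicle libraries and overlapped both treated groups, and RvD6si replicates 13 and 14 lay within the vehicle range. The log2 fold change was -0.40 (-0.71 to -0.08, edgeR adjusted p = 0.200) with RvD6si and -0.48 (-0.79 to -0.16, edgeR adjusted p = 0.191) with RvD6. DESeq2 fitted to vehicle and RvD6 alone called it, with an adjusted p of 0.03. The share of all genes called in that fit is not given here, so the call cannot be set beside it. Between the isomers it was 0.08 (-0.23 to 0.39).

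Gabarapl2, at chr8:111940703-111953612, had 2254, 2121, 2668, 2511 and 2627 with vehicle, 2241, 1760, 2207, 2032 and 2030 with RvD6, and 1790, 2063, 1966, 2236 and 1900 with RvD6si. Of the RvD6si libraries 4 lay below all vehicle libraries, and the RvD6 libraries reached into the vehicle range through replicates 6 and 8. Its log2 fold change was -0.30 (-0.53 to -0.06) with RvD6si and -0.26 (-0.50 to -0.02) with RvD6, with edgeR adjusted p of 0.207 and 0.331, and -0.04 (-0.28 to 0.20) between the isomers.

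Gabarapl1, at chr6:129533160-129542346, is the family member best known as a gene switched on by FOXO factors, and it had 2195, 1853, 2104, 1882 and 2008 with vehicle, 1902, 1657, 1789, 2752 and 1631 with RvD6, and 2705, 2666, 2554, 2483 and 2056 with RvD6si. Of the RvD6si libraries 4 were above all vehicle libraries, and in the RvD6 group replicate 9 was higher than every other library of the study. On the log2 scale the fold change was 0.31 (0.01 to 0.60) with RvD6si and -0.06 (-0.36 to 0.24) with RvD6, with edgeR adjusted p of 0.298 and 0.898. Between the isomers it was 0.37 (0.07 to 0.66, edgeR adjusted p = 0.436). The gene shares 28.3% of its exon bases with 1700101I11Rik on the opposite strand, where reads were likewise not counted.

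Map1lc3a had 962.5, 912, 804, 1546 and 856 with vehicle, 718, 757, 957, 594 and 619 with RvD6, and 1093, 818, 785, 1515 and 1112 with RvD6si. The RvD6 libraries were low, apart from replicate 8, and vehicle replicate 4 and RvD6si replicate 14 were both far above the rest of their groups. Its log2 fold change was -0.49 (-0.93 to -0.05, edgeR adjusted p = 0.313) with RvD6, 0.06 (-0.37 to 0.50) with RvD6si and 0.56 (0.12 to 0.99, edgeR adjusted p = 0.419) between the isomers. Gabarap had 1335, 1159, 1346, 1176 and 1098 with vehicle, 1162, 1022, 1222, 1127 and 1200 with RvD6, and 884, 1506, 933, 911.5 and 1156 with RvD6si. The groups overlapped in every comparison, and the log2 fold changes were -0.19 (-0.49 to 0.12) with RvD6si and -0.11 (-0.41 to 0.20) with RvD6.

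With RvD6, all 5 ATG8 family genes had a log2 fold change below 0, from -0.49 to -0.06, except that Gabarapl1 and Gabarap stood at 0.06 and 0.02 when the trend with gene length was removed. Of the 5, 3 were lower at an unadjusted p below 0.05, as were 5.99% of all genes. The same libraries carried less sensory neuron marker RNA, with 12 of 13 markers below 0 and a median log2 fold change of -0.36, and more muscle marker RNA, with 10 of 10 markers higher at an unadjusted p below 0.05. For RvD6si 7 of 13 neuron markers lay above 0 (median 0.05) and 0 of 10 muscle markers (median -0.82). There 2 ATG8 family genes lay above 0 and 3 below, with Map1lc3b at -0.40 and Gabarapl2 at -0.30. In the RvD6 libraries the summed satellite glia level was lower too, but 3 of its 6 markers lay above 0 and 3 below (median -0.09, and -0.01 with 3 and 3 for RvD6si). The part of these markers in the ATG8 values was not tested beyond a model with 1 score as a covariate, in which Map1lc3b stood at -0.56 with the muscle score and -0.29 with the neuron score. The summed level of the 5 genes in CPM per kilobase was 652 ± 49.8 with vehicle (588.5 to 723.5), 538 ± 48.0 with RvD6 (481.2 to 593.2) and 615 ± 45.4 with RvD6si (573.3 to 692.6; mean ± SD, n = 5 each).

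Within that sum the shares of single genes were compared library by library. Gabarapl1 made up 21.4% ± 2.20 with vehicle (18.05% to 24.2%) and 28.0% ± 2.98 with RvD6si (24.83% to 31.13%), with 24.8% ± 5.13 with RvD6 (mean ± SD, n = 5 each). Gabarapl2 made up 22.4% ± 1.48 with vehicle (20.85% to 24.09%), 19.4% ± 0.909 with RvD6si (17.83% to 20.21%) and 22.7% ± 1.35 with RvD6 (21.41% to 24.43%). For both genes the RvD6si and vehicle libraries did not overlap, in opposite directions, and for Gabarapl2 the RvD6si libraries also lay below all RvD6 libraries. Shares are parts of a whole, so a higher share of any gene lowers the others, and these differences are not independent. In normalized counts both genes overlapped between RvD6si and vehicle, with edgeR adjusted p of 0.298 for Gabarapl1 and 0.207 for Gabarapl2. Gabarapl2 differed by -0.04 on the log2 scale between the isomers. How many of all genes would separate on such a scale was not computed. Map1lc3b made up 23.7% with vehicle, 20.7% with RvD6 and 19.1% with RvD6si, Map1lc3a 18.3%, 15.8% and 20.3%, and Gabarap 14.2%, 16.01% and 13.3%. These shares rest on the exonic lengths, were chosen for display after the counts were seen and were not tested.

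**Figure D4:**
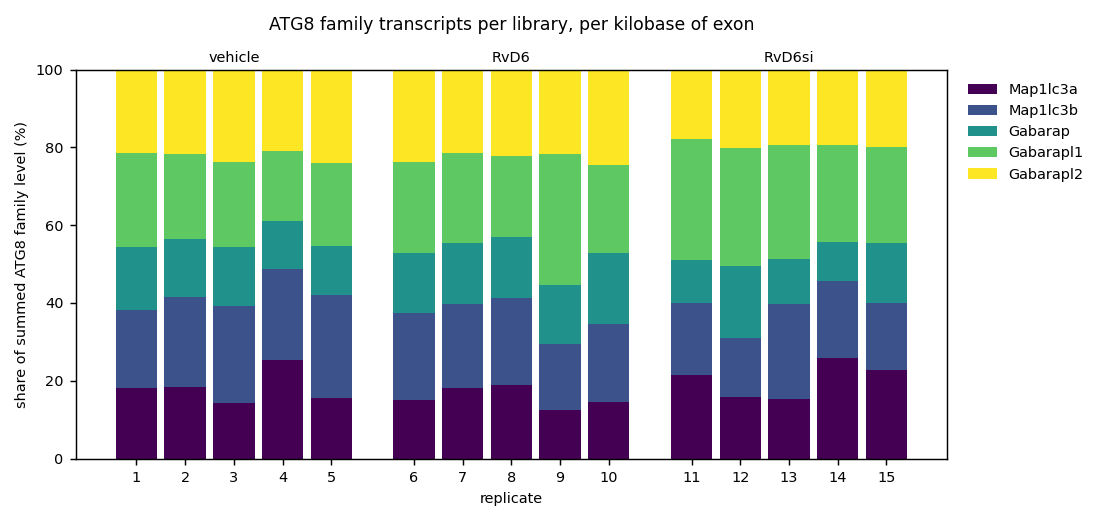
Share of each ATG8 family gene in the summed level of the 5 genes, in percent of counts per kilobase, for each of the 15 libraries by group. The Gabarapl1 share runs from 24.83% to 31.13% in the RvD6si libraries against 18.05% to 24.2% with vehicle, and the Gabarapl2 share from 17.83% to 20.21% against 20.85% to 24.09%.

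The receptors and the tether did not pass any test. Nbr1, which gathers ubiquitin-tagged cargo, stood at 0.22 (-0.11 to 0.55) with RvD6si, -0.06 (-0.39 to 0.27) with RvD6 and 0.27 (-0.06 to 0.60) between the isomers. Tax1bp1, the receptor with the most counts, had narrow intervals, at -0.03 (-0.27 to 0.21) with RvD6si, 0.02 (-0.22 to 0.26) with RvD6 and -0.05 (-0.29 to 0.19) between the isomers. Calcoco1, a relative of the receptor NDP52, stood at 0.19 with RvD6si and 0.39 with RvD6. Epg5, which tethers autophagosomes to late endosomes and lysosomes, stood at 0.51 (-0.39 to 1.41) and 0.24 (-0.66 to 1.14), where its low counts left wide intervals.

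Fold changes of the members against vehicle were positively correlated with gene length and negatively with expression level, which was not tested. The correlation with length was also present over all genes and is not particular to the members. Over the 36 members the Spearman correlation of log2 fold change with exonic length was 0.297 for RvD6si against vehicle and 0.366 for RvD6 against vehicle, beside 0.29 and 0.246 over all genes tested, and it was 0.053 between the isomers, beside 0.075 over all genes. The Spearman correlation of the members with their average log2 CPM was -0.259, -0.563 and 0.257 in the same order. No such value was computed over all genes. These points share the same libraries, and genes are not replicates. With RvD6si the 18 members longer than the median had a median log2 fold change of 0.19 and the 18 shorter ones 0.01, and with RvD6 the values were 0.06 and -0.08. When the length trend of each library was removed, the median over the members was 0.03 with RvD6si and -0.08 with RvD6, and Pik3c3 had a log2 fold change of 0.58 (0.69 with the trend kept) with an adjusted p of 0.0643.

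**Figure D5:**
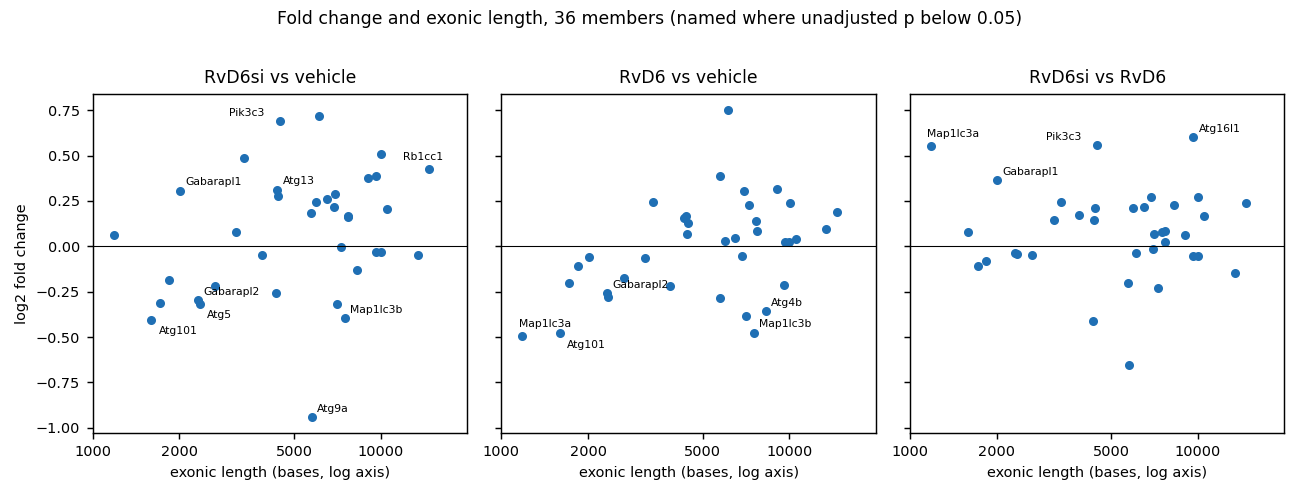
Log2 fold change of the 36 members against exonic length in bases (log axis), 1 panel per comparison and 1 point per gene, named where the unadjusted p is below 0.05. The Spearman correlation is 0.297 with RvD6si and 0.366 with RvD6 against vehicle, and 0.053 between the isomers.

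Around these members stand 74 further genes of the pathway in 4 lists, 73 of which were tested: other membrane factors, cargo receptors, upstream regulators, and fusion with the lysosome. With RvD6si 2 of the 73 rose and 0 fell at an edgeR adjusted p below 0.05 (0.67% of all genes passed). At an unadjusted p below 0.05, 13 were higher (17.8%, against 8.69% of all genes) and 4 lower (5.48%, against 7.3%). Both genes that rose, Sec62 and Rtn3, are known as receptors for autophagy of the endoplasmic reticulum. Sec62 had a mean normalized count of 854 ± 117 with RvD6si, 624 ± 83.4 with RvD6 and 542 ± 15.5 with vehicle (SD, n = 5 each), a log2 fold change of 0.65 (0.37 to 0.93) against vehicle with an edgeR adjusted p of 0.0346. Rtn3 had 9952 ± 1328, 7533 ± 879 and 6822 ± 583, a log2 fold change of 0.54 (0.29 to 0.78) with an edgeR adjusted p of 0.0394. For both genes all RvD6si libraries lay above all vehicle libraries. Without single libraries the call was lost for both in the same 8 fits as that of Pik3c3, with adjusted p up to 0.103 for Sec62 and 0.131 for Rtn3, and for Sec62 also without RvD6si replicate 15.

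By list, RvD6si gave 5 of 20 receptors higher (25%) and 0 lower at an unadjusted p below 0.05, beside 8.69% higher and 7.3% lower among all genes. Of 27 regulators 4 were higher (14.8%) and 3 lower (11.1%), of 16 fusion genes 4 were higher (25%) and 0 lower, and of 10 other membrane factors 0 were higher and 1 lower (10%). DESeq2 also passed C9orf72, Tollip, Ncoa4 and Vps33a, 6 genes in all of the 69 with a DESeq2 adjusted p (8.7%), a share near the 7.72% of all genes. C9orf72, whose protein acts on membrane traffic, had a log2 fold change of 0.63 (edgeR adjusted p = 0.0640), Tollip, a ubiquitin-binding adaptor, 0.73 (0.0872), Ncoa4, the receptor for ferritin, 0.75 (0.106) and Vps33a, a subunit of the HOPS tether, 0.53 (0.114). Rubcn, an inhibitor of the class III PI3-kinase, stood at 0.54 (edgeR adjusted p = 0.197), Sh3glb1 at -0.34 (0.213), Wdr45, a PI3P reader, at -0.42 (0.345) and Rilp, a Rab7 effector of low counts, at 1.74 (0.203).

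With RvD6 0 of the 73 passed the edgeR adjusted test (0% of all genes) or DESeq2 (1.9%), and at an unadjusted p below 0.05, 1 was higher (1.37%, against 7.63%) and 3 lower (4.11%, against 5.99%). Prkaa2, a catalytic subunit of the energy sensor AMPK, stood at 0.82 (edgeR adjusted p = 0.192). Sqstm1, which encodes the receptor p62, stood at -0.33 (0.344), Tex264, another receptor for the endoplasmic reticulum, at -0.45 (0.226) and the PI3P phosphatase gene Mtmr14 at -0.45 (0.363). The other genes named by the same rule were Vps16 at -0.35, Plekhm1 at 0.53, Wdr45 at -0.26 and Mitf at 0.84. Between RvD6si and RvD6, 0 of 73 passed with edgeR (0.235% of all genes), and at an unadjusted p below 0.05, 9 were higher (12.3%, against 4.18%) and 1 lower (1.37%, against 4.64%). DESeq2 passed 1 of the 73 (1.37%, against 0.929%), Sec62, at 0.46 (0.18 to 0.74) with a DESeq2 adjusted p of 0.0481. Rtn3 stood at 0.41 (edgeR adjusted p = 0.236), Vps33a at 0.56 (0.247), C9orf72 at 0.34 (0.538), Rptor of the mTORC1 complex at 0.39 (0.542), Vps11 at 0.33 (0.625), Tecpr1 at 0.33 (0.613) and Sh3glb1 at -0.42 (0.309).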

How the data were processed

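TG libraries were made with an adapted Smart-seq2 protocol from oligo-dT primed RNA, which keeps no strand. According to the methods and the submitters' processing notes, the authors aligned reads to GRCm38 with GENCODE M22 in R 3.6.1 and deposited raw counts per gene made with featureCounts (Subread 1.6.5). The file header names a different featureCounts version. It gives exon counts by gene, with no strand and without reads matching several places or genes. Gene names (99.7% of IDs) and the GC content of transcripts were taken here from GENCODE M21. Exon overlaps and lengths came from the exon positions and lengths in the deposited table, and promoter windows from RefSeq.

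The deposited counts were tested with edgeR 4.0.16 (TMM, quasi-likelihood, R 4.3.3, limma 3.58.1) over all 15 libraries in 1 fit without covariates. Genes needed a minimum count of 10 and a total of 15 (filterByExpr), and Benjamini-Hochberg adjustment ran over all 16567 genes at a threshold of 0.05. DESeq2 1.42.0, the tool of the study, was the alternative and gave size factors. Log2 CPM used a prior count of 2. Exact permutation tests were two-sided over 252 splits. Scripts were tested on simulated data. Figures used Python 3.11.15 and matplotlib 3.10.9. Groups and replicate numbers came from the labels, 5 libraries each.

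Members and lists were chosen with earlier results of these data known. Library values are given for members with an unadjusted edgeR p below 0.05 in any comparison and for the ATG8 family. Other pathway genes are named where they passed an adjusted p of 0.05 with either tool or were among the 2 of their list with the smallest p. Alternatives were other normalization, filters, samples in the fit, removal of the length or GC trend (lowess, span 0.3), removal of the 10 most counted genes, thinning to the smallest library and leaving out each library. Robust estimation and the marker score covariates were chosen after seeing the data. The deposited table was used for all results, and nothing in it was left out but genes that did not pass the filter.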

Additional observations from a re-analysis of the deposited data

Results flagged for a closer look

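Among the 13 members described library by library, 39 groups of 5 were screened for a single library far from the others, which chance gives in about 1 of 20 groups, and 3 were found. Map1lc3a had a normalized count of 1546 in vehicle replicate 4, where the other vehicle libraries held 804 to 962.5. Gabarapl1 had 2752 in RvD6 replicate 9, where the other RvD6 libraries held 1631 to 1902. Atg9a had 135.1 in the same RvD6 replicate 9, where the others held 58.84 to 78.52.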

How the results depend on the processing

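No paired analysis was possible because the replicate numbers run from 1 to 15 and no number is shared between groups. With DESeq2 the members called between RvD6si and RvD6 became 1, with all samples or the 2 groups alone, and those called between RvD6 and vehicle became 1 with the 2 groups alone. Between RvD6si and vehicle the members called became 0 without a filter and with the length trend removed. The shares of all genes called in these 2-group, unfiltered and length-trend fits are not given here. The median log2 fold change with RvD6si became 0.0322 with the length trend removed, and that with RvD6 became -0.0806 with the length trend removed, -0.11 with the muscle score and -0.049 with the neuron score as covariate. Leaving out each library gave 0 to 1 members called with RvD6si against vehicle, and medians of 0.0627 to 0.17 with RvD6si, 0.0397 to 0.10 between the isomers and -0.0467 (without RvD6 replicate 9) to 0.0537 with RvD6. Some log2 fold changes that did not pass the test changed sign. With RvD6 against vehicle these were Gabarapl1 (0.0611) and Gabarap (0.0156) with the length trend removed and Rb1cc1 (-0.0026) with the GC trend removed. Between RvD6si and RvD6 they were Gabarapl2 (0.11), Atg5 (0.0242) and Gabarap (0.0583) with the muscle score and Map1lc3b (-0.13) and Atg101 (-0.30) with the neuron score. Without single libraries the ranges that crossed 0 were -0.0165 to 0.26 for Atg101, -0.0941 to 0.0769 for Atg5, -0.0891 to 0.0085 for Gabarapl2 and -0.0233 to 0.16 for Map1lc3b between RvD6si and RvD6, and -0.22 to 0.0081 for Atg4b and -0.10 to 0.27 for Map1lc3a between RvD6si and vehicle. The cause was not tested. With RvD6si, Pik3c3 had a log2 fold change of 0.71 (adjusted p 0.0620) without a filter and 0.58 (0.0643) with the length trend removed, and under the other edgeR settings with no library left out its adjusted p ran from 0.0211 to 0.0480. Sec62 had 0.67 (0.0576), 0.55 (0.0522) and, with the GC trend removed, 0.55 (0.0501). Rtn3 had 0.56 (0.0824), 0.41 (0.0825) and, with the muscle score, 0.55 (0.0567). These folds kept their direction, and only the call was lost. Depth limits Atg4c, Ambra1, Atg4a, Atg9a and Epg5, which had few counts.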
